A study of Mus musculus with 8 samples.

Results

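The libraries described here are the 4 of 8 in the series that come from mouse embryonic stem cells kept with vitamin C: vitamin C alone on day 5 and on day 2, and L-proline plus vitamin C on day 5 and on day 2. Each day 5 library was set against the day 2 library of the same supplement. The cells are of strain 129/SvP, and all groups share culture at low density in FBS/LIF medium, that is, serum plus the self-renewal cytokine LIF. Vitamin C was given at 500 µM and L-proline at 1 mM, and each treatment and day has 1 library. The libraries of untreated cells and of L-proline alone, from the same days, give the level without vitamin C. Methylation was measured by reduced representation bisulfite sequencing (RRBS), which reads cytosines near restriction sites and therefore samples CpG-rich DNA most. The comparison used 659317 CpGs of chromosomes 1 to 19 that had at least 10 reads in all 4 libraries with vitamin C, of 1002817 such CpGs listed in any of the 8 libraries. Of these, 626509 were also listed in both day 2 libraries without vitamin C and 616929 in all 8. The question was which sites went on losing methylation after day 2, which had reached their low level by then, and which regained it.

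DNA methyltransferases place 5-methylcytosine at CpGs, DNMT1 copying it after replication and DNMT3A and DNMT3B adding it anew. The TET dioxygenases oxidise 5-methylcytosine, and ascorbate (vitamin C) supports their catalysis, so that the mark can be diluted or excised. In embryonic stem cells grown in serum the genome is highly methylated outside CpG islands, while most island promoters are unmethylated. Promoters of germline genes are a known exception, with an island that carries methylation outside germ cells. The first product of the TET enzymes, 5-hydroxymethylcytosine, is read as methylated after bisulfite treatment.

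Median coverage over the 659317 CpGs was 32 reads with vitamin C alone on day 5 and 31 on day 2. With L-proline plus vitamin C it was 26 reads on day 5 and 54 on day 2, so that this pair differed in depth. The set holds 84.7% of the CpGs of chromosomes 1 to 19 in the vitamin C library of day 5 and 88.1% in that of day 2. For L-proline plus vitamin C it holds 84.7% on day 5 and 67.1% on day 2, where more CpGs were listed. The lambda contig, usually added as DNA without methylation, showed 0.195% to 0.504% methylated calls in these 4 libraries.

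Mean methylation was slightly lower on day 5 than on day 2 in both pairs. It was 16.9% on day 5 and 17.7% on day 2 with vitamin C alone, and 18.8% on day 5 and 19.2% on day 2 with L-proline plus vitamin C. The later change, day 5 minus day 2, was -0.748 points with vitamin C alone and -0.457 points with L-proline plus vitamin C, a mean of -0.602 ± 0.206 points (SD, n = 2 pairs). An exact sign-flip permutation test over 2 pairs cannot go below p = 0.5. The size depended on the CpGs kept, with -0.352 points at a minimum of 20 reads. Averaging each library over all its own listed CpGs gave -3.09 points, but this sets unlike CpGs against each other and is not a change at the same sites. All 19 chromosomes were lower on day 5 in both pairs, by -0.928 to -0.646 points with vitamin C alone and by -0.681 to -0.317 points with L-proline plus vitamin C.

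The distance to cells without vitamin C grew over the same days, mostly because the level without it was higher on day 5. Over the 616929 CpGs of all 8 libraries, vitamin C minus untreated cells was -5.17 points on day 5 and -2.26 points on day 2. L-proline plus vitamin C minus L-proline alone was -6.17 points on day 5 and -3.03 points on day 2. Day 5 minus day 2 was -0.711 points with vitamin C and 2.20 points in untreated cells. It was -0.433 points with L-proline plus vitamin C and 2.71 points with L-proline alone. The lower level with vitamin C on day 5 therefore made up 24.4% of the widening in the series without L-proline and 13.8% in the series with it. Of the distance on day 5, 43.7% was present on day 2 without L-proline and 49.0% with it.

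The later change depended on the starting level of a CpG, and the profile differed between the pairs. CpGs were classed by untreated cells on day 2, a library that enters neither later change. With vitamin C alone, CpGs of 20 to 40% averaged 19.3% on day 5 and 22.2% on day 2, and those of 60 to 80% averaged 61.3% on day 5 and 64.4% on day 2. The later changes of the classes from 20 to 80% were -2.87, -2.98 and -3.13 points, the lowest of the 7 classes in this pair. With L-proline plus vitamin C, the same classes had later changes of 0.158, -0.631 and -2.17 points. CpGs of 80 to 95% had -2.66 points with L-proline plus vitamin C and -1.81 points with vitamin C alone. CpGs of 95% or more had -2.56 points with L-proline plus vitamin C and -1.38 points with vitamin C alone. CpGs of 5 to 20% had 0.234 points with L-proline plus vitamin C and -1.15 points with vitamin C alone. CpGs under 5%, 422952 in number, stayed within 0.1 points in both pairs. In this classing CpGs of 80% or more held 73.1% of the total change with L-proline plus vitamin C and 29.0% with vitamin C alone, and CpGs of 20 to 80% held 32.1% with L-proline plus vitamin C and 54.4% with vitamin C alone. Classed by L-proline alone on day 2, CpGs of 80% or more held 92.6% with L-proline plus vitamin C and 44.8% with vitamin C alone, and CpGs of 20 to 80% held 9.38% with L-proline plus vitamin C and 43.8% with vitamin C alone. With vitamin C alone the greater share thus lay at intermediate CpGs only in the classing by untreated cells. Classed by L-proline alone on day 2, CpGs of 20% or more averaged -2.37 points with vitamin C alone and -1.69 points with L-proline plus vitamin C, against -2.37 points with vitamin C alone and -1.85 points with L-proline plus vitamin C by untreated cells.

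**Figure D1:**
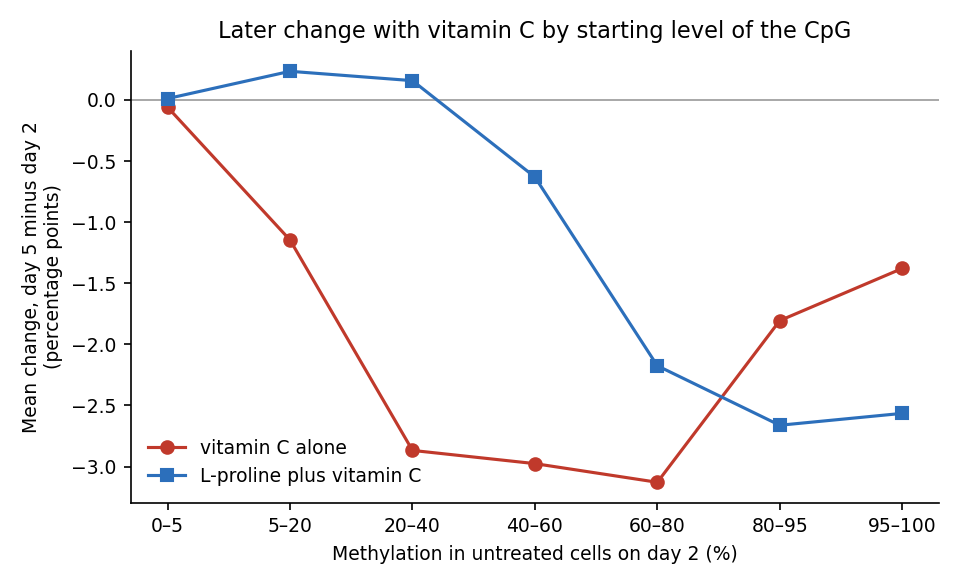
Mean change in methylation, day 5 minus day 2 (percentage points, vertical axis), of CpGs grouped by their level in untreated cells on day 2 (percent, horizontal axis), for vitamin C alone (red circles) and L-proline plus vitamin C (blue squares). With vitamin C alone the lowest value is -3.13 points at 60 to 80%, and with L-proline plus vitamin C it is -2.66 points at 80 to 95%.

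Few single CpGs differed between day 5 and day 2 beyond counting error. Each CpG's reads were tested by Fisher's exact test, which sets 2 libraries and not the conditions against each other, and a call needed a difference of 20 points or more and a Benjamini-Hochberg adjusted p below 0.05. With vitamin C alone 493 of 659317 CpGs fell (0.0748%) and 205 rose (0.0311%). With L-proline plus vitamin C 75 fell (0.0114%) and 37 rose (0.00561%). At an unadjusted p under 0.05, 17055 were lower and 9453 higher with vitamin C alone, and 13661 lower and 10958 higher with L-proline plus vitamin C. A share of up to 0.05 of CpGs without any change can pass that limit, so these counts are given only for their split. With a minimum of 20 reads the unadjusted split turned with L-proline plus vitamin C, to 5476 lower and 6162 higher, while vitamin C alone had 8316 lower and 4464 higher. Thinned to 20 reads in every library, 1 CpG was called with vitamin C alone (higher, on chromosome 15 at position 96433918) and 0 with L-proline plus vitamin C, where 2065 were lower and 1585 higher at an unadjusted p under 0.05 in Fisher's exact test.

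The called CpGs were chosen by the difference in their own pair, and the other pair gives a value that the choice did not use. The 493 CpGs that fell with vitamin C alone averaged 22.0% on day 5 and 72.8% on day 2 there, and 47.4% on day 5 and 51.7% on day 2 with L-proline plus vitamin C. That is a later change of -50.8 points in the pair that chose them and -4.35 points in the other, where all CpGs averaged -0.457 points. The 205 that rose with vitamin C alone had 55.0 points in their own pair and -2.42 points with L-proline plus vitamin C. In that second pair they averaged 71.3% on day 5 and 73.7% on day 2. CpGs of 60 to 80% in untreated cells on day 2 had a similar change there, -2.17 points. The 75 that fell with L-proline plus vitamin C had -3.71 points with vitamin C alone, where they averaged 62.3% on day 2. CpGs of 60 to 80% in untreated cells, at 64.4% there on day 2, had a similar change of -3.13 points. The 37 that rose had 2.90 points with vitamin C alone, where they averaged 22.2% on day 2. CpGs of 20 to 40% in untreated cells, also at 22.2% there, had -2.87 points.

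A single CpG fell in both pairs, on chromosome 10 at position 4970499. It was methylated in 3.64% of 110 reads with vitamin C alone on day 5 (95% Wilson interval 1.42 to 8.98%) and in 27.7% of 112 reads on day 2 (20.2 to 36.6%). With L-proline plus vitamin C it was methylated in 2.94% of 136 reads on day 5 (1.15 to 7.32%) and in 27.9% of 147 reads on day 2 (21.3 to 35.6%). The adjusted p of Fisher's exact test was 0.00325 with vitamin C alone and 0.000275 with L-proline plus vitamin C. This CpG was also lower on day 5 in cells without vitamin C, with 21.5% on day 5 and 52.4% on day 2 in untreated cells, and 21.8% on day 5 and 40.98% on day 2 with L-proline alone. Another CpG, on chromosome 1 at position 65672380, was called in opposite directions. It had 97.5% on day 5 and 57.9% on day 2 with vitamin C alone, and 58.1% on day 5 and 95.9% on day 2 with L-proline plus vitamin C. Reads copied by PCR are not independent molecules, so these intervals and tests take in counting error and nothing more.

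Summed over 1 kb tiles holding 3 or more CpGs, no tile passed the test of day 5 against day 2. The limma fit of the log2 ratio, methylated over unmethylated reads, with the supplement as a block, called 0 of 53972 tiles (0%), with 0.622 as its smallest adjusted p. Without adjustment, p fell under 0.05 with the lower level on day 5 at 2115 tiles and with the higher level at 1349. Among the 50675 tiles classed below, 6.33% had such a p, where a share near 0.05 would pass without any change. The vitamin C by day term, which sets the day change with vitamin C against that without it in all 8 libraries, called 0 of 49568 tiles (0%), with a smallest adjusted p of 0.382 in limma. Without adjustment, 5671 tiles had p under 0.05 and the more negative day change with vitamin C, and 507 the more positive one. Leaving out 1 library changed these counts, with 2496 more negative without the vitamin C library of day 2, 2981 without untreated cells of day 2 and 3390 without L-proline alone of day 5. The 4-library fit has 1 residual degree of freedom. In the fit of all 8 libraries the median log2 change of tiles was -0.09, and it was 0.02 without the vitamin C library of day 2. Centring each library to one median moved the 4-library median to 0.09, against -0.10, and turned the unadjusted split to 1362 lower and 2355 higher.

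Tiles were then classed by their course within each supplement series, as a description. A tile keeps losing where day 5 minus day 2 with vitamin C is -10 points or less, and regains where it is 10 points or more. Neither class requires a loss by day 2. It is low by day 2 where that change is under 10 points in size and the first loss, day 2 with vitamin C minus day 2 without it, is -20 points or less. All others are not lost. Of 50675 tiles, 5548 (10.9%) kept losing with vitamin C alone and 4018 (7.93%) with L-proline plus vitamin C, and 1115 did so in both. Low by day 2 were 1538 tiles with vitamin C alone and 1853 with L-proline plus vitamin C, 342 in both. Regains numbered 2892 with vitamin C alone and 2325 with L-proline plus vitamin C, 322 in both. The shared tiles are 20.1% of the losing list with vitamin C alone and 27.8% of that with L-proline plus vitamin C, 22.2% of the low list with vitamin C alone and 18.5% of that with L-proline plus vitamin C, and 11.1% and 13.8% of the 2 regain lists. Over all tiles these classes hold 7.93% (losing), 3.66% (low) and 4.59% (regaining) with L-proline plus vitamin C, so each shared share of the vitamin C lists was above it. Nearly unmethylated tiles, which can hardly enter these classes, lower the shares over all tiles. Opposite courses were above those shares too. A further 471 tiles kept losing with vitamin C alone and regained with L-proline plus vitamin C, 8.49% of the losing list with vitamin C alone. Another 418 regained with vitamin C alone and kept losing with L-proline plus vitamin C, 14.5% of the regain list with vitamin C alone, which is more than the 11.1% that regained in both. Tiles low by day 2 in one series kept losing in the other about as often as, or more often than, they were low there. Of the low list with vitamin C alone, 350 (22.8%) kept losing with L-proline plus vitamin C, against 7.93% of all tiles. The 342 low in both are 22.2% of that list, against 3.66% of all tiles. Of the low list with L-proline plus vitamin C, 603 (32.5%) kept losing with vitamin C alone, against 10.9% of all tiles. The 342 are 18.5% of that list, against 3.04% of all tiles. As a multiple of the share over all tiles, the low course was thus the more raised in both lists.

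Only part of a class was seen in the other series, which shares no library with the one that set it. Tiles that kept losing with vitamin C alone had a later change of -16.9 points there and -2.69 points with L-proline plus vitamin C (SD over tiles 9.63), where all tiles averaged -0.813 points. Tiles that kept losing with L-proline plus vitamin C had -15.4 points there and -4.03 points with vitamin C alone (SD over tiles 11.8), where all tiles averaged -1.32 points. Matched by L-proline alone on day 2, the losing tiles of the first reading had -2.12 points at 40 to 60%, against -0.193 for all tiles. At 80 to 95% (2575 losing tiles) they had -3.09 against -2.38 points. Matched by untreated cells on day 2, those of the second reading had -5.58 against -2.89 points at 40 to 60%. At 80 to 95% (1601 losing tiles) they had -2.68 against -1.64 points. Tiles low by day 2 with vitamin C alone, whose change there was 0.862 points, had -2.85 points with L-proline plus vitamin C. Tiles low by day 2 with L-proline plus vitamin C had -5.51 points with vitamin C alone, and 70.6% of them were lower on day 5 in that series. On average, tiles of this class were thus lower on day 5 in the other series. Tiles that regained with vitamin C alone had -0.642 points with L-proline plus vitamin C, and those that regained with L-proline plus vitamin C had -1.43 points with vitamin C alone, so these means show no gain in the other series. At matched level the regaining tiles lay above all tiles, though. Among tiles of 20 to 40%, 40 to 60% and 60 to 80% with L-proline alone on day 2, those that regained with vitamin C alone had 3.16, 2.49 and 0.715 points with L-proline plus vitamin C, against 0.783, -0.193 and -1.02 points for all tiles of these levels. Among tiles of the same levels in untreated cells on day 2, those that regained with L-proline plus vitamin C had -1.94, -0.790 and -2.06 points with vitamin C alone, against -3.37, -2.89 and -2.41 points for all, so there the change was less negative and not a gain. At 80 to 95%, which holds 1440 of the tiles that regained with vitamin C alone, the contrast was small. These had -2.01 points with L-proline plus vitamin C, against -2.38 points for all tiles of that level. The 404 tiles of 80 to 95% in untreated cells that regained with L-proline plus vitamin C had -1.45 points with vitamin C alone, against -1.64 points for all. Across tiles the later changes of the 2 series had a Pearson r of 0.10 (n = 50675), and of 0.19 over the 1516 tiles of 20 to 95% in untreated cells on day 2 with at least 200 reads in each of the 6 libraries used (the 4 with vitamin C and both day 2 libraries without it). Neighbouring tiles share a chromosome and all tiles of a series share its libraries.

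**Figure D2:**
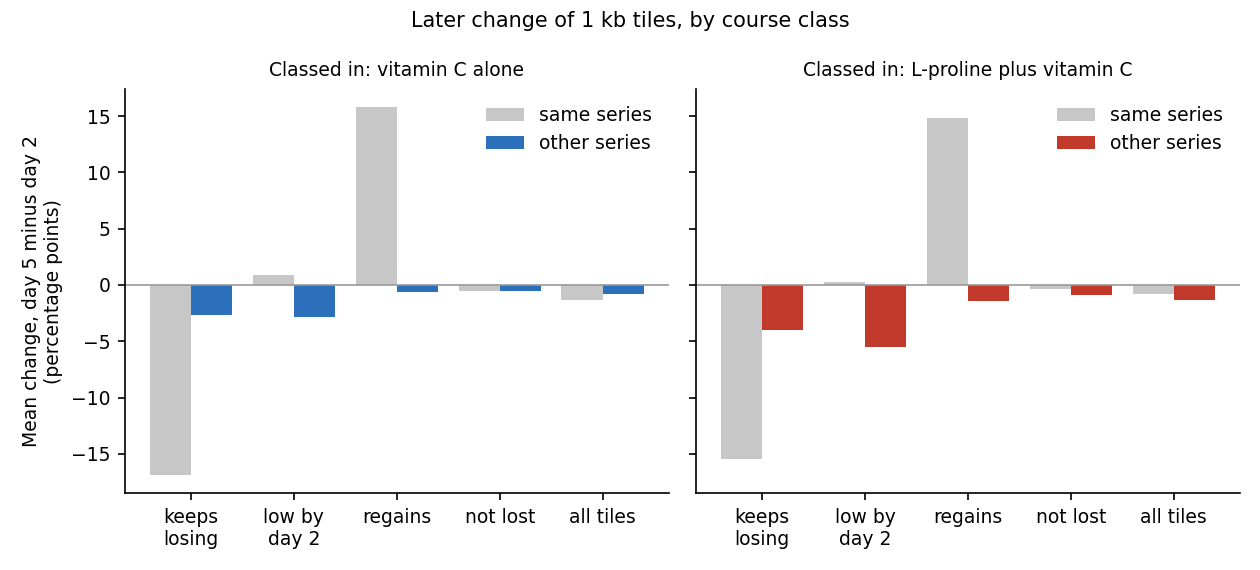
Mean change of 1 kb tiles, day 5 minus day 2 with vitamin C (percentage points, vertical axis), for each course class; the left panel classes tiles with vitamin C alone and the right panel with L-proline plus vitamin C. Grey bars are the series that set the class and coloured bars the other series: keeps losing has -16.9 against -2.69 points at left, and low by day 2 has 0.306 against -5.51 points at right.

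The tiles that had lost most by day 2 were also those with the lowest later change when the 2 steps were read in separate series. Tiles with a first loss of more than 30 points in the L-proline series had a later change of -6.38 points with vitamin C alone (419 tiles). Tiles with a first loss of 20 to 30 points had -5.46 points (2293 tiles), those of 10 to 20 points -2.88 points and those with no loss -0.131 points. With the first loss taken in the series without L-proline, the later change with L-proline plus vitamin C was -4.26 points at more than 30 points (575 tiles), -2.39 points at 20 to 30, -1.55 points at 10 to 20 and -0.436 points with no loss. At matched level the order was the same. Among tiles of 60 to 80% in untreated cells on day 2, a first loss of at least 20 points in the L-proline series went with -6.66 points with vitamin C alone (747 tiles, SD over tiles 14.2), and a first loss under 5 points with -0.184 points (2107 tiles, SD over tiles 10.3). Among tiles of 60 to 80% with L-proline alone on day 2, a first loss of at least 20 points in the series without L-proline went with -2.70 points with L-proline plus vitamin C (830 tiles), and one under 5 points with -0.531 points (2435 tiles). Within a single series the relation is turned, with a later change of 9.57 points after a first loss of more than 30 points with vitamin C alone, where both steps share the day 2 library.

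**Figure D3:**
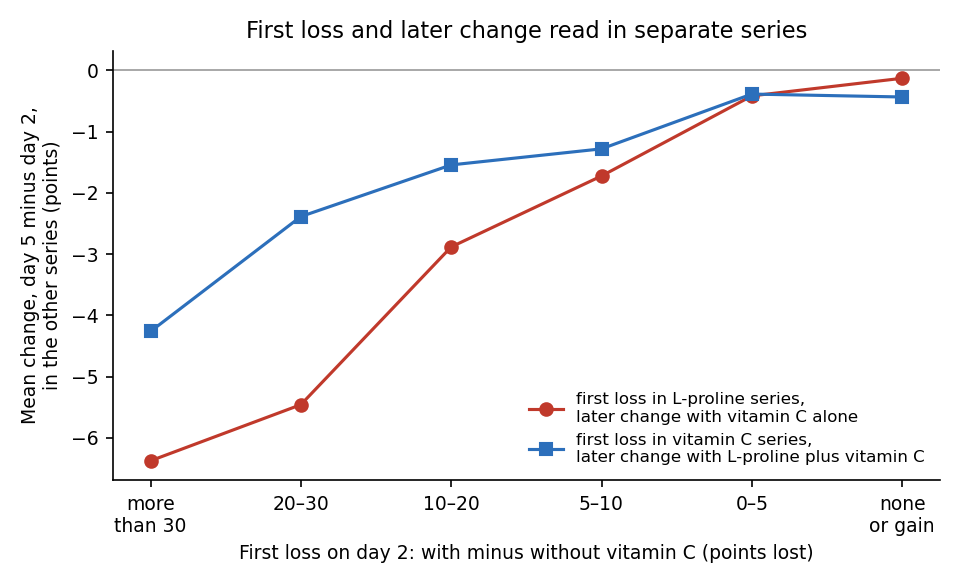
Mean change of 1 kb tiles from day 2, day 5 minus day 2 with vitamin C (percentage points, vertical axis), by the first loss on day 2 in the other supplement series (points lost, horizontal axis). The later change runs from -6.38 to -0.131 points with vitamin C alone (red circles) and from -4.26 to -0.436 points with L-proline plus vitamin C (blue squares) as the first loss becomes smaller.

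Levels under 10% were found at more tiles on day 5 than on day 2. Of the 26010 tiles at 20% or more in both day 2 libraries without vitamin C, 747 were under 10% with vitamin C alone on day 5 and 404 on day 2. With L-proline plus vitamin C the counts were 285 on day 5 and 97 on day 2. Under 10% in both series were 210 tiles on day 5 and 67 on day 2. Of the 26010 tiles, 4 were under 10% in untreated cells on day 5 and 0 with L-proline alone, where values were taken only for tiles measured in all 8 libraries. Under 5% were 202 tiles on day 5 and 66 on day 2 with vitamin C alone, and 74 on day 5 and 7 on day 2 with L-proline plus vitamin C. Depth in the L-proline plus vitamin C pair was lower on day 5, and its part in these counts was not tested.

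The tiles shared by both series differed in their level and in what they did without vitamin C. The 1115 that kept losing averaged 45.0% on day 5 and 63.2% on day 2 with vitamin C alone, 49.4% on day 5 and 65.8% on day 2 with L-proline plus vitamin C, and on day 2 without vitamin C 67.3% in untreated cells and 76.1% with L-proline. On day 2 these tiles were thus nearer to cells without vitamin C in the series without L-proline than in the series with it. The 342 low by day 2 averaged 27.2% on day 5 and 27.7% on day 2 with vitamin C alone, and 38.1% on day 5 and 38.3% on day 2 with L-proline plus vitamin C, against 54.1% in untreated cells and 64.6% with L-proline on day 2. The 322 that regained averaged 58.1% on day 5 and 41.9% on day 2 with vitamin C alone, and 69.9% on day 5 and 54.7% on day 2 with L-proline plus vitamin C. On day 2 without vitamin C they averaged 57.8% in untreated cells and 68.5% with L-proline. The classes were chosen for these changes, so the levels are a description.

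Cells without vitamin C were also higher on day 5 at the regaining tiles. From day 2 to day 5 those tiles had 13.4 points in untreated cells and 12.1 points with L-proline alone (306 tiles measured in all 8 libraries), and 81.0% were higher in both. The tiles that kept losing with vitamin C had 7.61 points in untreated cells and 7.50 points with L-proline alone (1039 tiles), with 67.7% higher in both, so there the direction with and without vitamin C was opposite. The 25101 tiles of 20 to 95% in untreated cells on day 2 had 7.35 points in untreated cells and 6.86 points with L-proline alone, with 68.3% higher in both, which is close to the tiles that kept losing and below those that regained. On day 2 these 25101 tiles averaged 69.7% in untreated cells and 77.1% with L-proline alone. The losing tiles were near this, at 67.3% and 76.1%, and the regaining tiles lower, at 57.8% and 68.5%. The 25101 tiles were also chosen by untreated cells on day 2, which enter the untreated day change. The part of starting level in these differences was not tested. The libraries without vitamin C did not enter the choice of the losing and regaining tiles. Day 5 levels without vitamin C cover only CpGs measured in all 8 libraries, and day 2 levels those of the 6 libraries used. Within a tile the CpGs behind these differences can thus differ between the days.

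The shared classes lay in CpG-poor stretches, as do most tiles with methylation to lose. Tiles with 3 to 5 measured CpGs were 87.0% of the tiles that kept losing, 77.2% of those low by day 2 and 92.5% of those that regained, against 81.4% of the 25101 tiles of 20 to 95% in untreated cells on day 2 and 53.0% of all tiles. The limits of 10 and 20 points can hardly be met by tiles with many CpGs, which are nearly unmethylated, so the contrast with all tiles is largely set by the rule. A promoter placed on these positions (described below) overlapped 1 of the 1115, 2 of the 342 and 1 of the 322 tiles, against 0.315% of the tiles of 20 to 95%. The median number of reads in the shallowest library was 65 for the tiles that kept losing and 76 for the tiles of 20 to 95%, and the part of depth in this was not tested. By density, tiles with 3 to 5 CpGs had later changes of -1.86 points with vitamin C alone and -1.27 points with L-proline plus vitamin C. Tiles with 6 to 10 CpGs had -1.45 points with vitamin C alone and -0.623 points with L-proline plus vitamin C. Tiles with 41 or more CpGs, at 0.6 to 0.864% in the 6 libraries, had -0.0371 points with vitamin C alone and -0.0111 points with L-proline plus vitamin C. By chromosome, tiles that kept losing in both series made up 1.65 to 3.02% of tiles.

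Tiles are named by the 8 largest shared values of each class among those with at least 50 reads in each of the 6 libraries used. Gene names beside a tile give the nearest promoter placed on these positions, and genes not placed may lie closer. None of the 24 passed in limma, with adjusted p between 0.622 and 1.0. CpGs within one fragment are read on the same molecules. The tiles were also chosen by changes in the summed reads of these same CpGs. The CpG directions given below for the named tiles are thus largely set by the choice.

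The tile with the largest shared loss after day 2 lies on chromosome 3 from 66900001 to 66901000 (6 CpGs). It was at 0% on day 5 with vitamin C alone and 39.2% on day 2, and at 0% on day 5 and 36.9% on day 2 with L-proline plus vitamin C. On day 2 without vitamin C it was at 45.8% in untreated cells and 43.8% with L-proline, so its first loss was small, and on day 5 it was at 53.0% in untreated cells and 71.1% with L-proline. Its later change was -38.1 ± 1.61 points (SD, n = 2 pairs; limma adjusted p = 0.622). With each library centred to one median it was the 1 tile called (limma adjusted p = 0.0173). All 6 CpGs read 0 on day 5, from 17 reads a CpG with vitamin C alone and 11 with L-proline plus vitamin C. At these depths a count of 0 allows up to 17.6% and 27.3%.

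Near genes of development, 2 tiles were lower at both steps, and they are the deepest of the 8. On chromosome 1, the tile from 122497001 to 122498000, with 6 CpGs and 211 to 397 reads a library, lies 0.8 kb from the promoter of En1, a homeobox factor of midbrain and hindbrain patterning. It was at 16.9% on day 5 and 44.5% on day 2 with vitamin C alone, 14.8% on day 5 and 43.7% on day 2 with L-proline plus vitamin C, and 74.4% in untreated cells and 71.2% with L-proline on day 2. All 6 of its CpGs were lower on day 5 in both pairs. On chromosome 17, the tile from 86080001 to 86081000, with 13 CpGs and 352 to 765 reads a library, lies 6.5 kb from the promoter of Six2, a homeobox factor of nephron progenitors. It was at 24.1% on day 5 and 52.1% on day 2 with vitamin C alone, 23.9% on day 5 and 53.9% on day 2 with L-proline plus vitamin C, and 75.9% in untreated cells and 77.1% with L-proline on day 2. At this tile 12 of 13 CpGs were lower on day 5 in each pair, and the other read 0 in all 6 libraries used. In each of these 2 tiles the first and the later difference were of similar size, with first losses of -28.6 ± 1.67 and -23.5 ± 0.463 points and later changes of -28.3 ± 0.898 and -29.0 ± 1.46 points (SD, n = 2 series). The promoter windows of both genes were unmethylated, at 0.287% to 3.46% for En1 and 0.344% to 0.841% for Six2 across the 8 libraries.

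The other 5 tiles that kept losing, each 1 kb long, start at position 145819001 of chromosome 5, at 122868001 and 69938001 of chromosome 8, at 30891001 of chromosome 1 and at 139036001 of chromosome 4. Their later changes ran from -43.7 to -28.1 points with vitamin C alone and from -34.0 to -29.2 points with L-proline plus vitamin C. Not all had a first loss in both series. On day 2 the tile on chromosome 1 was 6.12 points higher with vitamin C alone than in untreated cells. That on chromosome 4 was 4.29 points higher with L-proline plus vitamin C than with L-proline alone. In the other series their first losses were -21.3 and -13.5 points. Over all 8 tiles, 41 of 42 CpGs were lower on day 5 in each pair, a direction largely set by the choice of the tiles. The tile on chromosome 5 was at 39.5% on day 5 and 72.3% on day 2 with vitamin C alone, and at 33.3% on day 5 and 66.4% on day 2 with L-proline plus vitamin C.

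The tiles that were low by day 2 held their level over the next days, by the rule that chose them. The tile on chromosome 2 from 113837001 to 113838000 (4 CpGs), 1.1 kb from the promoter of A530058N18Rik, was at 17.7% on day 2 with vitamin C alone and 62.1% in untreated cells, and at 33.7% on day 2 with L-proline plus vitamin C and 78.8% with L-proline alone. On day 5 it was at 27.6% with vitamin C alone and 40.7% with L-proline plus vitamin C. The tile on chromosome 8 from 74234001 to 74235000 (4 CpGs), 38.1 kb from the promoter of Unc13a, a synaptic vesicle priming factor, moved least. It was at 23.6% on day 5 and 22.2% on day 2 with vitamin C alone, and at 34.9% on day 5 and 35.3% on day 2 with L-proline plus vitamin C, while untreated cells had 62.0% and L-proline alone 70.8% on day 2. The tile on chromosome 2 from 71389001 to 71390000 (4 CpGs) lies 3.9 kb from the promoter of Dlx2, a homeobox factor of forebrain interneurons. It was at 35.4% on day 5 and 30.4% on day 2 with vitamin C alone, and at 36.6% on day 5 and 42.6% on day 2 with L-proline plus vitamin C, while untreated cells had 65.9% and L-proline alone 78.4% on day 2. All 37 CpGs of the 8 tiles were lower on day 2 with than without vitamin C in both series, whereas from day 2 to day 5 they split, with 16 lower and 21 higher with vitamin C alone, and 19 lower and 18 higher with L-proline plus vitamin C. The lowest level reached was 8.97% on day 5 with vitamin C alone, on chromosome 6 from 76447001 to 76448000, where L-proline plus vitamin C had 37.1%. The low level of these tiles was therefore mostly an intermediate one, with a median over the 8 of 26.6% on day 5 with vitamin C alone and 36.9% with L-proline plus vitamin C.

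At the tiles that regained, day 5 with vitamin C lay above day 2 without it in 5 of 8 tiles without L-proline and in 7 of 8 with L-proline, though none passed the test. One of them, on chromosome 14 from 22870001 to 22871000, had no first loss to regain, with 53.5% with vitamin C and 53.7% in untreated cells on day 2, and was at 73.4% with vitamin C on day 5. On chromosome 4 from 116894001 to 116895000 (3 CpGs) methylation was at 60.7% on day 5 and 30.3% on day 2 with vitamin C alone, and at 65.4% on day 5 and 40.5% on day 2 with L-proline plus vitamin C. Without vitamin C the tile had 68.8% on day 5 and 52.5% on day 2 in untreated cells, and 84.8% on day 5 and 63.0% on day 2 with L-proline. On chromosome 3 from 121529001 to 121530000 (3 CpGs), 10.5 kb from the promoter of Abcd3, which encodes a peroxisomal membrane transporter, it was at 73.4% on day 5 and 47.1% on day 2 with vitamin C alone, and at 87.3% on day 5 and 60% on day 2 with L-proline plus vitamin C. On day 2 without vitamin C that tile had 67.7% in untreated cells and 89.7% with L-proline. The tile on chromosome 11 from 101195001 to 101196000 (5 CpGs), 17.4 kb from the promoter of Psme3, a proteasome activator subunit, was at 65.2% on day 5 and 43.0% on day 2 with vitamin C alone, and at 78.3% on day 5 and 57.7% on day 2 with L-proline plus vitamin C. All 5 of its CpGs were higher on day 5 in both pairs. The other 5, on chromosomes 6, 15, 10, 14 and 7, had later changes of 19.1 to 31.0 points with vitamin C alone and 20.4 to 24.6 points with L-proline plus vitamin C. Of the 8 tiles, 7 were also higher on day 5 without vitamin C in both untreated cells and L-proline alone, the exception being that on chromosome 3.

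**Figure D4:**
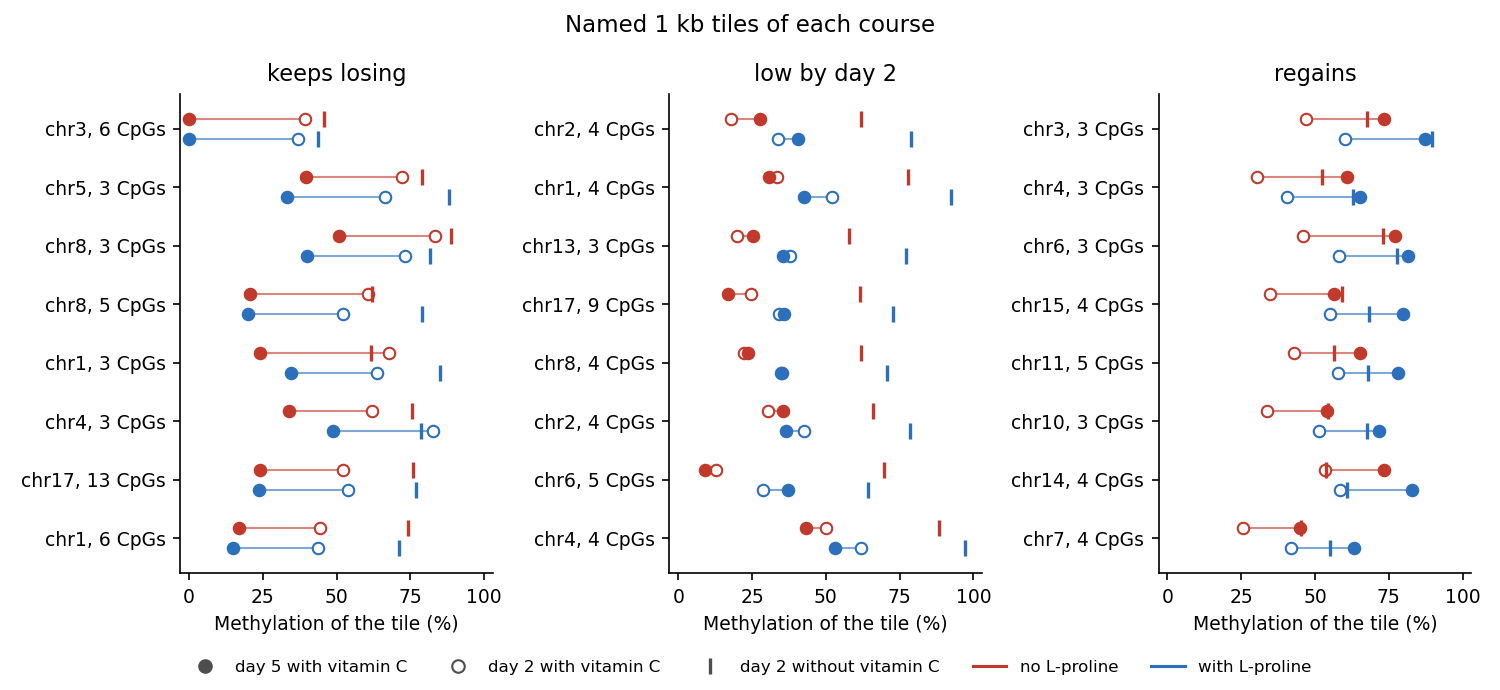
Methylation (percent, horizontal axis) of the 8 named tiles of each course: filled circles are day 5 and open circles day 2 with vitamin C, and ticks are day 2 without vitamin C; red has no L-proline and blue has L-proline. The tiles that keep losing end between 0% and 50.7%, the tiles low by day 2 have their circles close together left of the ticks, and the regaining tiles have the filled circle to the right of the open one.

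Promoters were followed in windows of 300 bases, from 250 before to 50 after a gene's start, whose RefSeq sequences were placed on the deposited positions by the spacing of their CpGs. Of 31396 promoters on chromosomes 1 to 19, 7046 could be placed, and 6543 of them held at least 3 CpGs measured in all 8 libraries. The limma test of day 5 against day 2 with vitamin C called 0 of 6543 (0%), with 122 lower and 233 higher at an unadjusted p under 0.05. A share near 0.05 would pass that limit without any change. Promoters are mostly unmethylated, with means of 0.803% on day 5 and 0.830% on day 2 with vitamin C alone, and 0.902% on day 5 and 0.910% on day 2 with L-proline plus vitamin C, over 6342 windows with different CpGs. Only 91 windows had 10% or more in both day 2 libraries without vitamin C. They averaged 17.3% on day 5 and 18.7% on day 2 with vitamin C alone, and 21.7% on day 5 and 22.4% on day 2 with L-proline plus vitamin C, against 29.1% in untreated cells and 34.9% with L-proline on day 2. Of these 91, 31 were lower on day 5 in both pairs and 14 higher in both, that is 34.1% and 15.4%. Over all 6342 windows 1514 were lower in both pairs (23.9%) and 1455 higher (22.9%).

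The lists followed were chosen with the earlier results known. Of 14 naive pluripotency genes 3 had a measured window (Sox2, Klf2 and Tfcp2l1), of 10 primed or early lineage genes 3 (Dnmt3b, Fgf5 and Foxa2), and of 9 genes of the methylation machinery 7 (Dnmt1, Dnmt3a, Dnmt3b, Uhrf1, Tet2, Tet3 and Tdg). With vitamin C none of these windows exceeded 1.97% in any library. Of 15 imprinted genes 4 had a window, and of 14 germline genes 6. None of the listed windows was called in limma in either direction.

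Germline promoters held most of the methylated windows of the lists, and they did not take one course. The sequences of the 4 with 20% or more in both day 2 libraries without vitamin C are shown, to let their CpGs be counted, together with the promoter with the largest shared lower value (Plut) and the one with the largest shared higher value (Gm10863). They are RefSeq sequences from the GRCm38.p6 table, printed 5′ to 3′ along the gene's strand, with the CpGs measured in all 8 libraries in capitals. The coordinates are the mm9 positions of the deposited CpGs that the sequence fits.
Sycp1, chr3:102739974-102740273, minus strand, 8 of 21 CpGs measured: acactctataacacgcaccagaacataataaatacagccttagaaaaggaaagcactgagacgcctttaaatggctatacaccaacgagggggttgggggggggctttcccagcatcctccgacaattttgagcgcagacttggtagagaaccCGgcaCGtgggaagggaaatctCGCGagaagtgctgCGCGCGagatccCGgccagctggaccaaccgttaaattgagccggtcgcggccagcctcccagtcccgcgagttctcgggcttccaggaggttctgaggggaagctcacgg
Asz1, chr6:18059012-18059311, minus strand, 6 of 17 CpGs measured: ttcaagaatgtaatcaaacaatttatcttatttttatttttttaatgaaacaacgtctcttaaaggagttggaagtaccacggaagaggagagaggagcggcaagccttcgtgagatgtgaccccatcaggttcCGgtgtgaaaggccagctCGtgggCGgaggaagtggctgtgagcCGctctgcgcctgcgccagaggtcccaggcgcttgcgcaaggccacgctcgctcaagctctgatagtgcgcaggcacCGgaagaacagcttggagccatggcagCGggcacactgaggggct
Hormad1, chr3:95363349-95363648, plus strand, 11 of 24 CpGs measured: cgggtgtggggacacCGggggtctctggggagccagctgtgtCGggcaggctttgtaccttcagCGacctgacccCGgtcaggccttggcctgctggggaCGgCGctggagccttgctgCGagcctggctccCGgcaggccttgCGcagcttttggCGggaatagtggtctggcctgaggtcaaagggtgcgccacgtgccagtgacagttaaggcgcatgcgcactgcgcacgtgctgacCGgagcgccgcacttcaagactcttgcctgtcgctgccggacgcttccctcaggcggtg
Slc25a31, chr3:40512543-40512842, plus strand, 6 of 22 CpGs measured: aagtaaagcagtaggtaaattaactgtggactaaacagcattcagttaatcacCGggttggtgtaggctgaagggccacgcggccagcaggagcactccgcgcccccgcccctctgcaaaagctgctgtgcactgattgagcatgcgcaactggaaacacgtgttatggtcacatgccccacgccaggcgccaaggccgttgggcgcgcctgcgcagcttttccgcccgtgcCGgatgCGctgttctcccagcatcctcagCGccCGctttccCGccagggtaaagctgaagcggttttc
Plut, chr5:148083048-148083347, minus strand, 7 of 15 CpGs measured: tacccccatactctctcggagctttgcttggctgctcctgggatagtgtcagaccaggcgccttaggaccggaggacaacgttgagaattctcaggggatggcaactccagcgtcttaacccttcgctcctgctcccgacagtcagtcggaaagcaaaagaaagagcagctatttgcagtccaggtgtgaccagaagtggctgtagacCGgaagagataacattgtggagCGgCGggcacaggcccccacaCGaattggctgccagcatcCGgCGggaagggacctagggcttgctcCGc
Gm10863, chr15:78996246-78996545, plus strand, 5 of 19 CpGs measured: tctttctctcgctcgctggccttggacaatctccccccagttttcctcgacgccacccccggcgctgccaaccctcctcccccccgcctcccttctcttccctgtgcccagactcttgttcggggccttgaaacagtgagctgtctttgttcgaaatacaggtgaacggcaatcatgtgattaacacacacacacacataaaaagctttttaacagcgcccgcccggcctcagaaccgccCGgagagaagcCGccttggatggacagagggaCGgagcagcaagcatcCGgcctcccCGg

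Asz1, which encodes a germ cell protein of the piRNA pathway, was lower on day 5 in both pairs. Its window was at 29.1% on day 5 and 42.9% on day 2 with vitamin C alone, and at 42.3% on day 5 and 50.2% on day 2 with L-proline plus vitamin C, against 58.8% in untreated cells and 75.9% with L-proline on day 2. That is a later change of -10.8 ± 4.16 points (SD, n = 2 pairs; limma unadjusted p = 0.404). Of the 6 CpGs in capitals 4 were lower on day 5 in each pair. The CpG at base 159 was at 17.6% on day 5 and 66.7% on day 2 with vitamin C alone, and at 46.7% on day 5 and 70.6% on day 2 with L-proline plus vitamin C.

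Slc25a31 was lower on day 5 in both pairs, and Hormad1 with vitamin C alone, while its values with L-proline plus vitamin C were nearly equal. Hormad1, a meiotic chromosome axis protein, was at 14.97% on day 5 and 25.1% on day 2 with vitamin C alone, and at 24.6% on day 5 and 25.1% on day 2 with L-proline plus vitamin C, against 35.3% in untreated cells and 50.1% with L-proline on day 2. Of its 11 CpGs, 9 were lower and 2 higher on day 5 with vitamin C alone, and 4 lower and 7 higher with L-proline plus vitamin C. Slc25a31, the adenine nucleotide carrier of the testis, was at 16.1% on day 5 and 25.6% on day 2 with vitamin C alone, and at 15.7% on day 5 and 20% on day 2 with L-proline plus vitamin C, against 31.0% in untreated cells and 43.0% with L-proline on day 2. Of its 6 CpGs, 4 were lower on day 5 in each pair.

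Sycp1, the transverse filament protein of the synaptonemal complex, had its lower level by day 2. It was at 34.8% on day 2 with vitamin C alone and 60.6% in untreated cells, and at 48.4% on day 2 with L-proline plus vitamin C and 67.0% with L-proline alone. On day 5 it was at 44.6% with vitamin C alone and 47.1% with L-proline plus vitamin C, so that the 2 pairs had opposite signs, 9.78 and -1.34 points. Of its 8 CpGs, 7 were higher on day 5 with vitamin C alone and 5 with L-proline plus vitamin C. The remaining 2 germline windows were low with vitamin C on both days. Mael, a piRNA pathway factor, was at 3.54% on day 5 and 4.20% on day 2 with vitamin C alone, and at 6.79% on day 5 and 3.63% on day 2 with L-proline plus vitamin C, and Ddx4, the germ cell helicase, was within 0.3 points of its day 2 level in both pairs.

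Among the 88 methylated windows with at least 50 reads in every library, the 8 lowest and 8 highest shared values were taken after the values had been seen. They too were ranked by the smaller in size of the 2 pairs' changes. Their SDs can thus understate the spread between pairs, and the directions of their CpGs are largely set by the choice. Plut, a long noncoding RNA gene beside Pdx1, had the largest shared lower value. It was at 10.8% on day 5 and 24.0% on day 2 with vitamin C alone, and at 8.54% on day 5 and 19.96% on day 2 with L-proline plus vitamin C, against 42.4% in untreated cells and 53.2% with L-proline on day 2. Its later change was -12.4 ± 1.32 points (SD, n = 2 pairs; limma unadjusted p = 0.077), and of its 7 CpGs all 7 were lower on day 5 with vitamin C alone and 6 with L-proline plus vitamin C. The window shared by Gm44140 and Atf7ip, a cofactor of the histone methyltransferase SETDB1, was at its lowest on day 5, with most of the difference from cells without vitamin C present on day 2. It was at 1.17% on day 5 and 6.09% on day 2 with vitamin C alone, and at 1.58% on day 5 and 6.55% on day 2 with L-proline plus vitamin C, against 29.8% in untreated cells and 42.1% with L-proline on day 2. Cldn11, a tight junction protein of myelin and Sertoli cells, was at 0.8% on day 5 and 5.71% on day 2 with vitamin C alone, and at 2.16% on day 5 and 7.15% on day 2 with L-proline plus vitamin C. The others of the 8 were Asz1, Speg, Slc13a3, Vmn2r29 and Sprn.

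On the higher side the values were smaller. Gm10863 was at 57.1% on day 5 and 47.3% on day 2 with vitamin C alone, and at 65.8% on day 5 and 56.3% on day 2 with L-proline plus vitamin C, against 72.9% in untreated cells and 73.3% with L-proline on day 2. Its later change was 9.65 ± 0.204 points (SD, n = 2 pairs; limma unadjusted p = 0.469), and 4 of its 5 CpGs were higher on day 5 with vitamin C alone and all 5 with L-proline plus vitamin C. The overlapping windows of the imprinted gene Plagl1, a zinc finger factor, and its partner transcript Hymai share most of their CpGs. Plagl1 was at 34.4% on day 5 and 24.2% on day 2 with vitamin C alone, and at 47.0% on day 5 and 43.9% on day 2 with L-proline plus vitamin C, against 57.2% in untreated cells and 43.1% with L-proline on day 2. Untreated cells were at 28.8% on day 5, below vitamin C on that day, so the lower level with vitamin C alone on day 2 rests on 1 untreated library that the later one goes against. Dmrtb1, a factor of spermatogenesis, was at 12.4% on day 5 and 10.3% on day 2 with vitamin C alone, and at 18.9% on day 5 and 13.6% on day 2 with L-proline plus vitamin C.

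**Figure D5:**
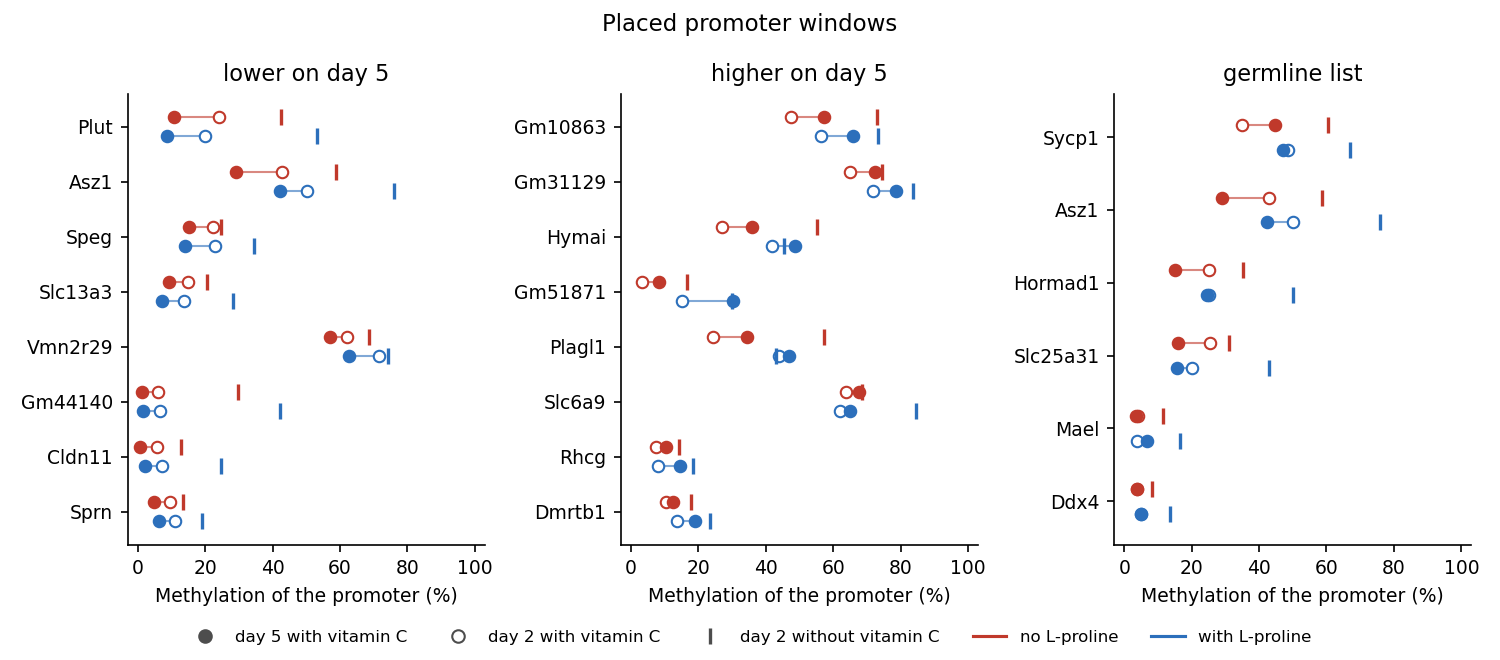
Methylation (percent, horizontal axis) of promoter windows: the 8 lowest and the 8 highest shared values among methylated windows and the 6 germline windows, with filled circles for day 5 and open circles for day 2 with vitamin C and ticks for day 2 without it; red has no L-proline and blue has L-proline. Plut lies at 8.54% to 10.8% on day 5, left of its day 2 values, and Sycp1 shows opposite directions in the 2 pairs.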

How the data were processed

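The data are 8 RRBS libraries, 1 for each treatment and day. The submitters' processing notes name CASAVA, BSMAP 2.88 and mm9 without roles. Each deposited file gives, per CpG, the authors' methylated fraction (0 to 1) and its coverage, at least 10 reads; the handling of duplicates is not stated there. Methylated reads were taken as fraction times coverage, rounded. The members and lists were chosen with earlier results of these data known.

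CpGs were compared between day 5 and day 2 by two-sided Fisher's exact tests. Reads were summed over 1 kb tiles of at least 3 CpGs, and log2((methylated + 1)/(unmethylated + 1)) was fitted in limma 3.58.1 with Benjamini-Hochberg adjustment, called at an adjusted p under 0.05 and 10 points. The supplement paired the libraries as a block. With 1 library per group, the spread between the 2 pairs holds supplement effects and noise, and p-values measure only these libraries. Named tiles are the 8 largest shared values of each course class with at least 50 reads. Procedures were tested on simulated data.

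No mm9 annotation was used here. Promoter sequences of RefSeq GRCm38.p6 were placed after the files had been seen, where at least 8 listed CpGs matched their spacing, no listed CpG lay off the sequence and no other place came within 2 matches. Of 7048 placed, 2 fell on another chromosome than the gene's and were dropped, and mirrored sequences gave 22. No coordinate of that build was used.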

Additional observations from a re-analysis of the deposited data

Results flagged for a closer look

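Mean methylation was lower on day 5 than on day 2 with vitamin C and higher without it, in both supplement series, and this opposite sign drew attention. Over the CpGs of all 8 libraries the difference between the day change with vitamin C and that without it was -2.91 points without L-proline and -3.15 points with it. The limma vitamin C by day term called no tile, as given above, and with 1 library per group the means themselves were not tested further.

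The 2 pairs with vitamin C differed in sign at CpGs of 20 to 40% in untreated cells on day 2, with -2.87 points with vitamin C alone and 0.158 points with L-proline plus vitamin C. The difference of -3.03 points was not tested. Depth in the pair with L-proline was 26 reads on day 5 and 54 on day 2, and its part in this was not tested.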

How the results depend on the processing

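The mean later change was negative under all 5 alternatives, but its size followed the CpGs kept. It was -0.352 points with a minimum of 20 reads, -0.238 points with 30 reads and -3.09 points over all CpGs listed for each library, with -1.29 points for vitamin C alone and -4.88 points for L-proline plus vitamin C. The Fisher calls with vitamin C alone numbered 455 at 20 reads and 1 after thinning to 20 reads, and with L-proline plus vitamin C 0 after thinning. Limma called 0 tiles in all 4-library alternatives except centring each library to one median, which called 1, the tile on chromosome 3 from 66900001 to 66901000 (adjusted p = 0.0173). Leaving out each library in turn, in the 8-library fits, gave from 0 to 0 tiles for day 5 against day 2 and for vitamin C by day. For vitamin C by day, the tiles at an unadjusted p under 0.05 with the more negative change numbered 2496 to 6707 over these fits, against 5671. Without the vitamin C library of day 2 the median log2 change of tiles was 0.02, against -0.09 with all 8 libraries, and centring turned it to 0.09, against -0.10. With limits of 15 and 30 points the shared tiles were 323 that kept losing, 39 low by day 2 and 65 that regained. In tiles of 2 kb, 23 of the 24 named tiles moved by less than the spread between pairs, and all 16 losing or regaining tiles kept their direction. Nearly all of these values were identical to those of 1 kb, so this setting says little about them. The later change differed for the regaining tile on chromosome 6 from 113362001, with 16.3 points against 27.2. It also differed for the low tile on chromosome 2 from 71389001, with 1.05 points against -0.499. No analysis paired by replicate number was possible because each group has 1 library. Precision is limited by 26 to 54 reads a CpG. The log2 ratio of nearly unmethylated promoters shifts with depth through the pseudocount.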
